A study of Mus musculus with 12 samples.

Results

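The nuclear genes for the subunits of oxidative phosphorylation were examined in 4 sorted populations of mouse regulatory T cells (Treg), each measured on 3 one-colour Agilent arrays. The genes were taken by name from the array design: every gene whose name begins with Nduf, Uqcr, Atp5 or Cox4 to Cox8, together with Sdha, Sdhb, Sdhc, Sdhd, Cycs and Cyc1. That gave 85 genes, each read by its brightest probe. Of these, 82 were well above background on 3 or more arrays and were tested among 15559 features in all. The other 3, Cox4i2, Cox8b and Cox8c, were not well above background on any of the 12 arrays; they encode tissue-restricted isoforms of complex IV subunits. Of the tested genes, 80 were well above background on all 12 arrays, Atp5s was so on 11 and Cox7c on 6, and no member was saturated.

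IL10+ and IL10- tumour Treg came from VERT-X mice, an IL-10 EGFP reporter line on C57BL/6, and were gated as CD25+ and CD120b+/low and then separated by EGFP. Total tumour Treg came from FoxP3-EGFP mice on C57BL/6 and were gated on EGFP. Both lines carried subcutaneous tumours of MC38, a mouse colon carcinoma line, for 2 weeks, and the tumours were pooled before sorting. Spleen Treg came from FoxP3-EGFP mice without tumours, so that the organ and the presence of a tumour cannot be told apart in the comparison of tumour with spleen. All 4 sorts first took cells that were CD45+, CD11b low, CD3+ and CD4+. Each population came from 3 experiments.

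Oxidative phosphorylation takes place in the inner mitochondrial membrane. Complex I (the Nduf genes) takes electrons from NADH and complex II (the Sdh genes) takes them from succinate. Complex III (the Uqcr genes and Cyc1) passes them to the mobile carrier cytochrome c (Cycs), and complex IV (the Cox genes) passes them to oxygen. The proton gradient built on the way drives ATP synthase (the Atp5 genes). Treg are known to rely on mitochondrial respiration, complex III included, for their suppressive function. The subunits encoded in mitochondrial DNA are not among the genes described.

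A level is the log2 probe signal minus the log2 of that array's 75th percentile, so that 0 is the array's upper quartile and 1 unit is a doubling. Levels of different probes are not set against each other. The 75th percentile signal was between 98.9 and 645 across the 12 arrays, and between 42.2% and 65.5% of probes were well above background. Replicate arrays correlated across genes at 0.987 to 0.989 for total tumour Treg, 0.964 to 0.982 for spleen Treg, 0.957 to 0.977 for IL10- and 0.927 to 0.958 for IL10+ Treg. Marker genes of other cells differed between tumour and spleen arrays. The summed signal of 17 macrophage and monocyte markers, in units of the 75th percentile, was between 42.6 and 102 on the spleen arrays and between 343 and 661 on the total tumour arrays, with Trem2 and Msr1 not above background in spleen. For 11 fibroblast and endothelial markers the ranges were 3.25 to 6.70 and 84.7 to 115, and for 10 B and plasma cell markers 73.0 to 210 and 4.06 to 4.67. The endothelial markers did not follow the sum of their list. Pecam1 read 1.42, 1.80 and 1.58 in spleen and 0.24, -0.44 and 0.13 in total tumour. Cdh5 and Kdr overlapped between these groups, and Tek was not well above background in either. Red cell and platelet markers spanned 304 to 756 in spleen and 6.15 to 10.9 in tumour. Of these, Hba-a1 read 9.21, 9.52 and 8.23 in spleen and 2.64, -1.26 and 0.70 in total tumour. The platelet gene Pf4 read -1.99, 3.51 and -2.43 in spleen and 2.01, 3.36 and 2.12 in total tumour. The platelet genes Ppbp and Itga2b were higher in spleen, and not well above background in total tumour. The 10 T cell and Treg markers spanned 398 to 440 in spleen and 455 to 614 in tumour. These sums hide a difference among the spleen arrays. Spleen replicate 2 read -3.95 for Il2ra, -0.94 for Ctla4, -1.28 for Ikzf2, 4.67 for Tnfrsf18 and 0.59 for Tnfrsf1b. Spleen replicates 1 and 3 read 0.67 and 1.23, 3.06 and 3.25, 3.07 and 3.23, 6.73 and 6.71, and 2.62 and 2.48. Cd3e, Cd3d, Cd3g and Cd4 were instead highest in spleen replicate 2. On the IL10- and IL10+ arrays the macrophage and monocyte markers summed to 389 to 587 and 491 to 823, and the fibroblast and endothelial markers to 81.8 to 203 and 108 to 255. The Foxp3 probe was not well above background on any spleen or total tumour array, where it read -6.62 to -5.83. It was well above background on every IL10- and IL10+ array, at 2.55 to 4.57. This difference follows the mouse line and the last sorting gate, which cannot be told apart here, and its cause was not tested. The part that other cells play in the results was not tested.

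To ask how the respiratory chain genes of Treg in a tumour compare with those of spleen Treg, total tumour Treg were set against spleen Treg. Of 82 genes, 11 passed the test, 6 higher and 5 lower in the tumour. Cytochrome c (Cycs) rose by 0.89 ± 0.14 (log2, SE), the complex IV isoform gene Cox7a1 by 1.06 ± 0.24, and the related gene Cox7a2l fell by 1.0 ± 0.20. The genes called at an adjusted p under 0.05 (limma, Benjamini-Hochberg over all 15559 features) were 13.4% of the members, where 43.0% of all features tested were called (20.6% higher and 22.3% lower). At an unadjusted p under 0.05 there were 19 members, against 51.0% of all features. In bulk RNA of sorted cells, fewer cells of a type and less RNA per cell cannot be told apart.

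The differences of the members were also smaller than those of the array at large. Their median absolute difference between tumour and spleen was 0.26 on the log2 scale, against 0.63 over all features. Only 2 of 82 members, Cox7a1 and Cox7a2l, differed by more than 2-fold, against 32.4% of all features. The members were also measured more tightly, with a median SE of 0.16 against 0.28. Differences ran from -1.0 to 1.06, with 57 members above 0, 25 below, and a median of 0.12 against -0.07 over all features. The 3 spleen arrays and the 3 tumour arrays did not overlap for 49 members, or 59.8%, against 66.4% of all features. The median level of the members on each array was 4.95, 5.07 and 4.88 in spleen and 5.03, 5.02 and 5.18 in tumour. The 2 groups of medians overlap.

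**Figure D1:**
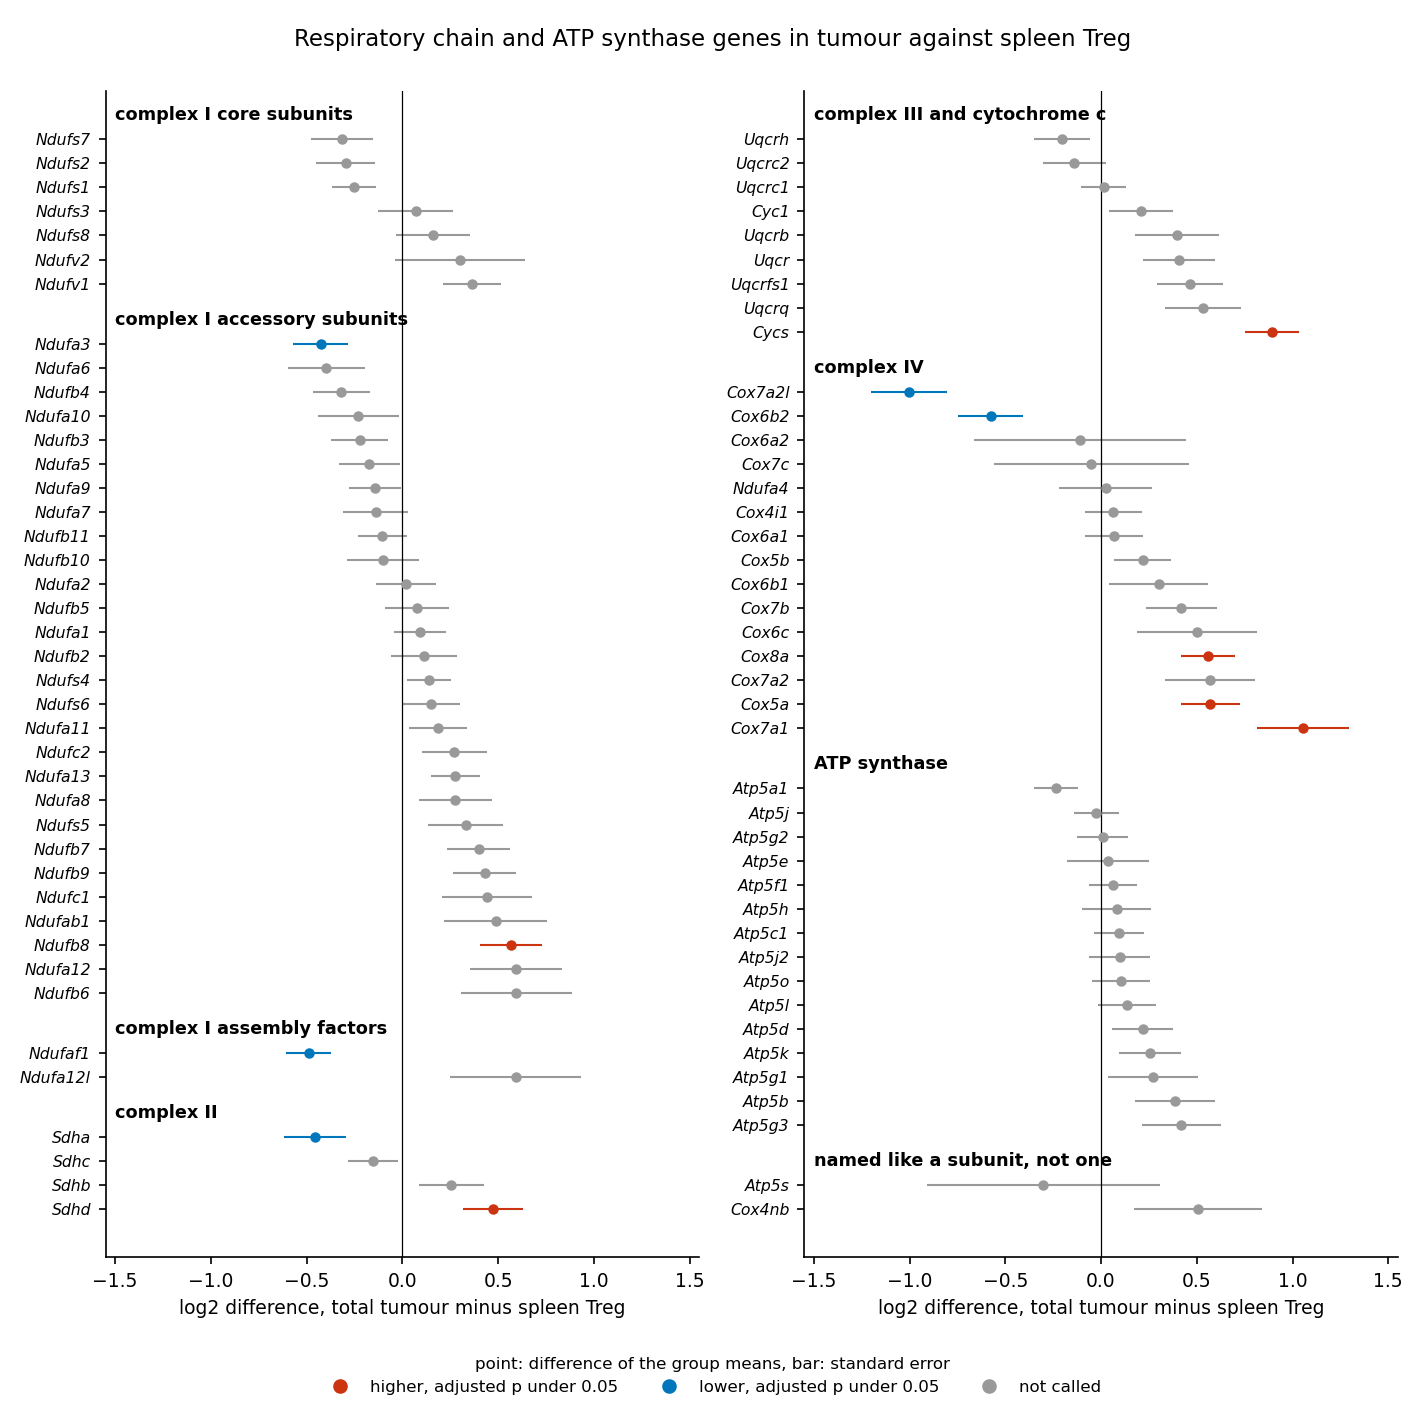
Difference between total tumour Treg and spleen Treg (log2, x axis) for each of the 82 tested members, grouped by role, with bars for the SE and colour for the called members. Every role has members on both sides of 0, and the called members lie between -1.0 and 1.06.

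In complex I, 0 of 7 core subunits passed the test (limma; 1 of 7 had an unadjusted p under 0.05). The core subunits carry the flavin and iron-sulphur centres, and their median difference was 0.07. Ndufv1, which binds NADH, had the highest value, 0.36 ± 0.15 with an adjusted p of 0.0774, and the iron-sulphur subunit Ndufs7 the lowest, -0.31 ± 0.16. Ndufs1, the largest iron-sulphur subunit, had a difference of -0.25 ± 0.11 (adjusted p 0.103). Among 28 accessory subunits, which surround and stabilise the core, Ndufb8 was called higher and Ndufa3 lower at their brightest probes, and the median was 0.13. Ndufb8, in the membrane arm, was at 5.55, 5.19 and 5.35 in spleen and 5.81, 5.93 and 6.06 in tumour. It rose by 0.57 ± 0.16 (adjusted p 0.0175). Ndufa3 was at 5.92, 6.09 and 5.75 in spleen and 5.38, 5.39 and 5.70 in tumour, and this brightest probe fell by 0.43 ± 0.14 (adjusted p 0.0364), while the gene's second probe rose by 0.77 ± 0.18 (adjusted p over all probes 0.00709). For both genes the lowest array of the higher group lay above the highest of the other. Ndufaf1, an assembly factor of complex I that is not part of the finished enzyme, was at 1.81, 1.87 and 1.71 in spleen and 1.24, 1.39 and 1.29 in tumour. It fell by 0.49 ± 0.12 (adjusted p 0.00806). The other assembly factor, listed as Ndufa12l and now called Ndufaf2, had a difference of 0.59 ± 0.34 (adjusted p 0.193).

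Complex II, which is shared by the citric acid cycle and the respiratory chain, held 1 gene that rose and 1 that fell among 4. Sdha, the flavoprotein that oxidises succinate, was at 2.25, 2.57 and 2.36 in spleen and 2.11, 1.89 and 1.81 in tumour. It fell by 0.46 ± 0.16 (adjusted p 0.0442). Sdhd, a membrane anchor subunit, was at 4.01, 3.74 and 3.97 in spleen and 4.35, 4.38 and 4.41 in tumour. It rose by 0.47 ± 0.16 (adjusted p 0.0336). Neither gene's tumour arrays overlapped its spleen arrays. The iron-sulphur subunit Sdhb had a difference of 0.26 ± 0.17 (adjusted p 0.255) and the other anchor, Sdhc, -0.15 ± 0.13 (adjusted p 0.383).

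Complex III and cytochrome c had the highest median of the roles with more than 2 genes, 0.40 over 9 genes, of which 7 were above 0 and 1, Cycs, was called. Cycs encodes the soluble carrier between complexes III and IV, which also takes part in apoptosis when released. Its probe (mm8 chromosome 6, 50494842 to 50494901, minus strand) was at 4.68, 4.86 and 4.62 in spleen and 5.47, 5.68 and 5.70 in tumour. The lowest tumour array lay above the highest spleen array, and the 1.86-fold rise had an adjusted p of 0.000839. In the IL10- arrays it was at 5.47, 5.38 and 5.27, and in the IL10+ arrays at 5.44, 5.13 and 5.14, all above the spleen arrays. The genome holds near-identical processed copies of Cycs, so the copy read by the probe is uncertain. The Rieske iron-sulphur protein Uqcrfs1 (0.47 ± 0.17, adjusted p 0.052) and Uqcrq, a small subunit (0.53 ± 0.20, adjusted p 0.055), lay just outside the threshold. The core subunit Uqcrc1 had a difference of 0.01 ± 0.12 (adjusted p 0.94), and Cyc1, cytochrome c1, 0.21 ± 0.17 (adjusted p 0.344).

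Complex IV held 5 of the 11 called genes, 3 higher and 2 lower of 15 tested. Cox7a1, the isoform of subunit 7a known from heart and skeletal muscle, was dim. Its probe (mm8 chromosome 7, 29894078 to 29894689, plus strand) was at -1.27, -1.99 and -1.39 in spleen and -0.60, -0.50 and -0.38 in tumour. The IL10- arrays read 0.25, 0.10 and -0.38 and the IL10+ arrays -0.06, -0.60 and -0.51, so that all 9 tumour arrays lay above the 3 spleen arrays. The 2.08-fold rise from spleen to total tumour Treg had an adjusted p of 0.00583. The widely expressed isoform Cox7a2 had a difference of 0.57 ± 0.24 that missed the threshold (adjusted p 0.076). Cox7a2l, a related protein described as a factor for supercomplexes of complexes III and IV, went the other way. Whether it acts so in these mice was not tested. Its probe (mm8 chromosome 17, 83410820 to 83410879, minus strand) was at 5.25, 5.77 and 5.27 in spleen and 4.48, 4.35 and 4.44 in tumour (adjusted p 0.00281). The IL10- arrays were at 4.08, 3.89 and 3.88 and the IL10+ arrays at 4.08, 3.48 and 3.50. Every tumour array lay below every spleen array, and both IL10 fractions lay below total tumour Treg.

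The other complex IV genes that differed were Cox5a, Cox8a and Cox6b2. Cox5a, a subunit on the matrix side, was at 6.10, 6.11 and 5.98 in spleen and 6.51, 6.66 and 6.73 in tumour (0.57 ± 0.15, adjusted p 0.0135). Cox8a, the widely expressed isoform of subunit 8, was at 6.66, 6.78 and 6.53 in spleen and 7.09, 7.22 and 7.33 in tumour (0.56 ± 0.14, adjusted p 0.0106). Both sets of tumour arrays lay wholly above the spleen arrays. Cox6b2, the isoform of subunit 6b known from testis, was dim, at -0.41, -0.79 and -0.99 in spleen and -1.30, -1.31 and -1.30 in tumour (-0.58 ± 0.17, adjusted p 0.021). The widely expressed form Cox6b1 had a difference of 0.30 ± 0.26 (adjusted p 0.382). Cox4i1, the regulatory subunit to which ATP binds, was at 7.54, 7.65 and 7.48 in spleen and 7.58, 7.54 and 7.74 in tumour, and these overlap (0.06 ± 0.15, adjusted p 0.766). Cox6a1 (0.07 ± 0.15), its muscle isoform Cox6a2 (-0.11 ± 0.55), Cox7b (0.42 ± 0.19, adjusted p 0.0958) and Ndufa4, now counted with complex IV (0.02 ± 0.24), were not called either.

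For ATP synthase, 0 of 15 genes passed the test (limma; 0 of 15 at an unadjusted p under 0.05), although 13 differences were above 0. The median was 0.10, and the values ran from -0.23 ± 0.11 for Atp5a1, the alpha subunit of the catalytic head (adjusted p 0.124), to 0.42 ± 0.21 for Atp5g3 (adjusted p 0.127). The catalytic beta subunit Atp5b had a difference of 0.39 ± 0.21 (adjusted p 0.163). Atp5g1, Atp5g2 and Atp5g3 encode the same c-ring protein from separate genes, and the first and second had differences of 0.27 ± 0.23 and 0.01 ± 0.14. Of the genes caught by their names that are not subunits, Cox4nb (now Emc8, of the endoplasmic reticulum membrane complex) had a difference of 0.51 ± 0.34, and Atp5s (now Dmac2l) -0.30 ± 0.61.

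**Figure D2:**
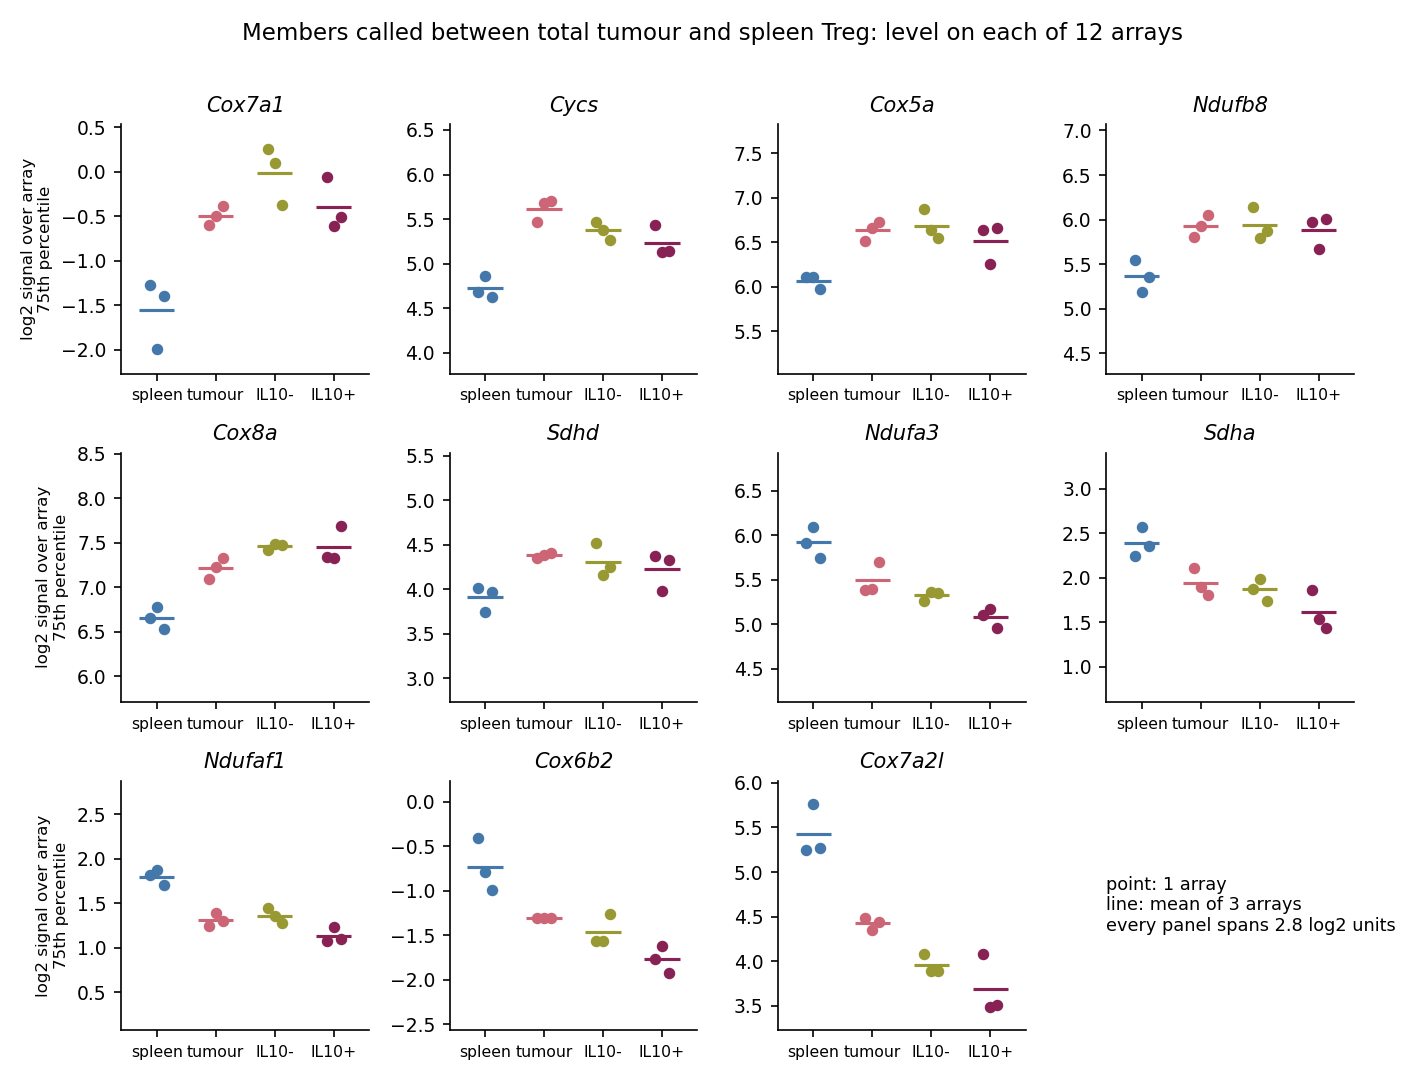
Level of the 11 called members (log2 signal over the array's 75th percentile, y axis) on each of the 12 arrays (1 point each), by population, with the mean of 3 arrays as a line. Total tumour and spleen arrays do not overlap for any of the 11, and Cox7a2l stands between 5.25 and 5.77 in spleen and between 4.35 and 4.48 in total tumour.

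The promoters of 5 called members are shown to set what their sequences hold beside the direction of their change: Cycs, Sdhd and Cox7a1, which rose, and Ndufaf1 and Cox7a2l, which fell. Each is the 250 bases before the annotated start, 5′ to 3′ on the gene's strand, from RefSeq on GRCm38.p6. Capitals mark a match to the nuclear respiratory factor 1 core GCATGCGC in Cycs and to the ETS word CCGGAAG in Sdhd and Ndufaf1, on either strand, so that Sdhd shows the complement CTTCCGG. Cox7a1 and Cox7a2l held none of the searched motifs. The positions are chr6:50566570-50566819 (minus strand) for Cycs, chr9:50603850-50604099 (minus strand) for Sdhd, chr7:30183921-30184170 (plus strand) for Cox7a1, chr2:119662835-119663084 (minus strand) for Ndufaf1 and chr17:83514334-83514583 (minus strand) for Cox7a2l.
Cycs: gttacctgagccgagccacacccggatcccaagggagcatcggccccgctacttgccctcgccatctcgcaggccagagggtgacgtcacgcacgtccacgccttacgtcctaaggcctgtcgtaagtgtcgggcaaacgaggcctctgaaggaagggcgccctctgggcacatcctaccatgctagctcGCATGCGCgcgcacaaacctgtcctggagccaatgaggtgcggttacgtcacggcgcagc
Sdhd: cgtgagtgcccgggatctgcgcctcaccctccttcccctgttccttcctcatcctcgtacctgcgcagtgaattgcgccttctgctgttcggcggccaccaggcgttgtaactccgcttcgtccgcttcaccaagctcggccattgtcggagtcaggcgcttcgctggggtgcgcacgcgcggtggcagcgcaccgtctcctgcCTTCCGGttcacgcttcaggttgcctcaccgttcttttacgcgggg
Cox7a1: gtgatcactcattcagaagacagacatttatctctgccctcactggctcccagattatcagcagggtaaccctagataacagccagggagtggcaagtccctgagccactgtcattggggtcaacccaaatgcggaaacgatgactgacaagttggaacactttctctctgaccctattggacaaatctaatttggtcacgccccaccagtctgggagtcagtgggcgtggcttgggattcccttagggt
Ndufaf1: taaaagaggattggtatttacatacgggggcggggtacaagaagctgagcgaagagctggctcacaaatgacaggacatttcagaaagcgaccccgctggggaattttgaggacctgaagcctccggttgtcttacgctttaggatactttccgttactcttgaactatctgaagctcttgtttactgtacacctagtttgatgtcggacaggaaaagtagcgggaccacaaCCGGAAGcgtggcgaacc
Cox7a2l: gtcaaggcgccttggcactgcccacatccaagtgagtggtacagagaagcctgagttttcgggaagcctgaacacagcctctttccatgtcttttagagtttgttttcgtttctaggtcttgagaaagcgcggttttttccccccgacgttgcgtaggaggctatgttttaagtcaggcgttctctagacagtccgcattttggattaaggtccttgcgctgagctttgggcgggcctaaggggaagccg

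Nuclear respiratory factor 1 and the ETS-family factor GABP are known regulators of respiratory chain genes. Promoters of 69 of the 85 genes could be matched and were searched on both strands, from 250 bases before to 50 after the start. The full nuclear respiratory factor 1 motif of 10 letters, which contains the core and adds a GC before it, was present in 5 (7.25%, against 1.07% of 27025 genes), and the core GCATGCGC in 11 (15.9% against 3.05%). The ETS word CCGGAAG was present in 17 (24.6% against 9.93%), the YY1 word AAGATGGC in 10 (14.5% against 3.19%) and the E-box CACGTG in 6 (8.70% against 8.09%). Among the called members, Cycs held the core at 60 bases before its start, Sdhd an ETS word at 46 and Ndufaf1 one at 18. Cox8a, which rose, also held an ETS word. Ndufb8, which rose, and Ndufa3, lower at its brightest probe, both held the YY1 word. The ETS word was thus present in members of either direction. For the YY1 word this rests on Ndufa3, whose probes disagree on the direction (below 0 at the brightest probe and above 0 at the second). A match is a description of the letters and not of binding.

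Several genes had more than 1 probe, and these did not always move together. Other probes were present for 28 of the 85 genes, and 30 such probes could be tested, of which 10 had a tumour minus spleen difference opposite in sign to that of the brightest probe. A second Sdha probe fell further than the brightest, by 0.79 ± 0.15 (adjusted p over all probes 0.00214). Further Cycs probes had differences of 0.40 ± 0.20 (adjusted p 0.145) and 0.51 ± 0.21 (adjusted p 0.0759), both above 0. For Ndufa3 the mean over its probes was 0.17 (adjusted p 0.392), against the fall at the brightest probe. The second Ndufb8 probe had a difference of -0.21 ± 0.24 (adjusted p 0.525). Ndufb2, an accessory subunit of complex I with 0.11 ± 0.17 at its brightest probe, had a second probe that fell by 2.12 ± 0.33 (adjusted p 0.000796) but was well above background on only 6 arrays. The parts of the transcripts that these probes read were not analysed here.

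Slide 2 held the 3 spleen arrays and 1 tumour array, and the other tumour arrays lay on slide 1, while all 6 were scanned on the same day. Within slide 2 the single tumour array differed from the mean of the spleen arrays by 0.98 for Cycs, 1.17 for Cox7a1, 0.67 for Cox5a, 0.69 for Ndufb8, 0.67 for Cox8a and 0.50 for Sdhd. The 5 lower members stood at -0.99 for Cox7a2l, -0.57 for Cox6b2, -0.50 for Ndufaf1, -0.59 for Sdha and -0.22 for Ndufa3. The signs of these values follow from the choice of the 11, whose tumour and spleen arrays do not overlap. With the slide as a block, most of the 11 did not stay under the threshold, and fewer of all features passed it as well. Only slide 2 held both groups, so that this fit rests on its single tumour array and repeats the differences above. It is not a separate check. The SE of Cycs was 0.20 in that fit against 0.14, and its difference 0.98 against 0.89. With the scan day as a block, tested after seeing the data, 21 members were called (15 higher, 6 lower), the 11 among them. Of all features 47.0% were called in that fit. As all 6 arrays share a scan day, the block cannot adjust this comparison, and the fit equals that without IL10+ replicate 1.

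The scale also moved the calls. After normexp background correction 1 member was called (Cox7a1, higher), where 12.4% of all features were called. With arrays scaled to their median 0 were called (limma, with 3 at an unadjusted p under 0.05), where 24.9% of all features were. A fit on the 6 arrays compared called 30, where 53.8% of all features were called. Leaving out 1 array gave 6 calls without total tumour replicate 3 and 7 without total tumour replicate 2 or any 1 of the spleen arrays. It gave 21 without IL10+ replicate 1, which is in neither group and acts through the variance that all 4 groups share. Of all features 34.3% were called without total tumour replicate 3, 32.8% to 36.6% in the fits with 7 calls, and 47.0% without IL10+ replicate 1. The split of higher to lower calls was 6 to 5 as reported and 4 to 6 after quantile normalization. It was 2 to 6 on the deposited value table and 9 to 3 with the 75th percentile taken over probes. Of all features 43.0%, 39.2%, 39.7% and 42.2% were called in these settings. Under the 5 other scalings the median of complex III and cytochrome c stayed above 0, at 0.14 to 0.45. The medians of complex I core subunits (-0.26 to 0.12), complex I accessory subunits (-0.14 to 0.18), complex II (-0.31 to 0.11), complex IV (-0.08 to 0.27) and ATP synthase (-0.12 to 0.15) took both signs. Over 25 alternatives, Cycs, Cox7a1 and Cox7a2l stayed called in 23 each, Cox8a and Ndufaf1 in 21, Cox5a in 17, Cox6b2 in 16, Ndufb8 in 15, Sdhd in 13, Ndufa3 in 10 and Sdha in 8. Of these 11, Ndufa3 changed sign under 1 alternative, the mean over its probes, and the others under none. Among the 25 alternatives, the scan day block and the fit without IL10+ replicate 1 are the same fit for this comparison.

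**Figure D3:**
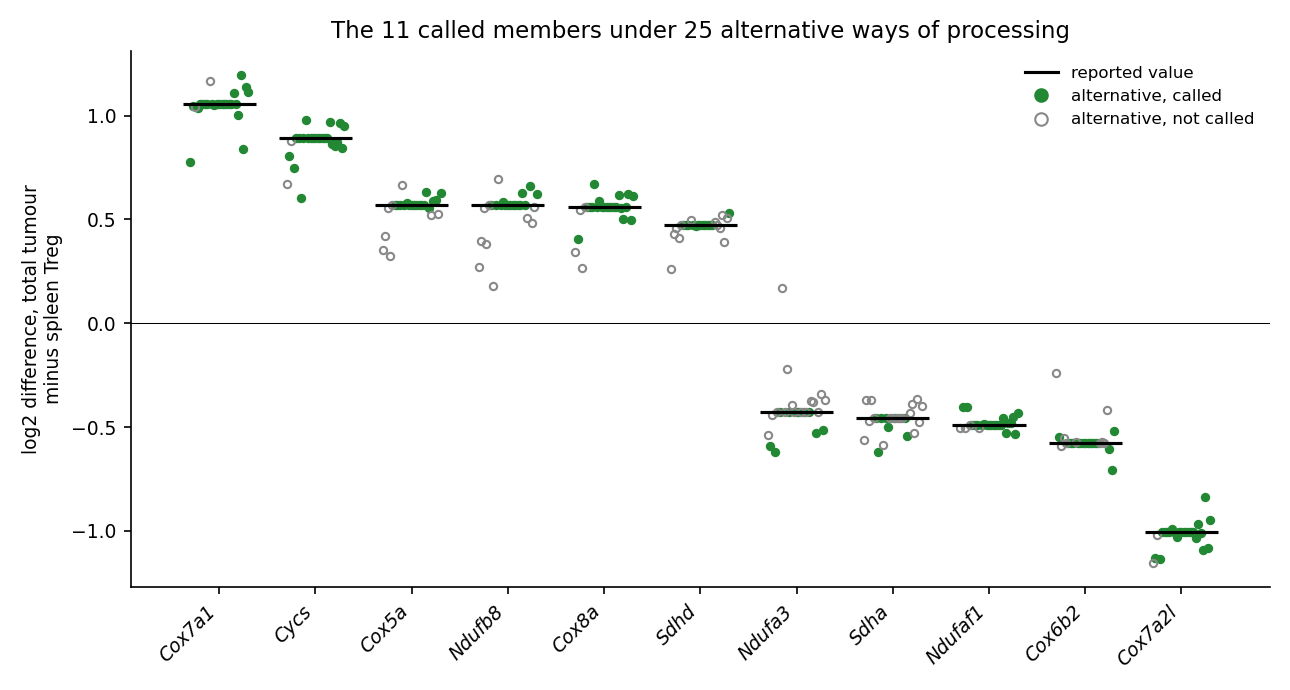
Difference between total tumour and spleen Treg (log2, y axis) for each of the 11 called members as reported (line) and under 25 alternatives (filled points where the gene stayed called, open points where it did not). Cycs ran from 0.60 to 0.98 and Cox7a2l from -1.15 to -0.83, while Ndufa3 crossed 0.

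Other lists of energy metabolism had larger median differences between spleen and tumour. Of 18 glycolysis genes 13 rose and 0 fell, with a median difference of 1.34. Examples are Tpi1, triose phosphate isomerase (2.88 ± 0.18, adjusted p 3.52e-06), and Pgk1, phosphoglycerate kinase (1.99 ± 0.12, adjusted p 2.94e-06). Pgam1, phosphoglycerate mutase, rose by 2.26 ± 0.22 (adjusted p 4.95e-05). Of 16 hypoxia response genes 10 rose and 1 fell, with a median of 1.49. Bnip3, a mitophagy receptor induced by low oxygen, rose by 3.87 ± 0.15 (adjusted p 6.59e-07), and Ndrg1, another gene induced by low oxygen, by 2.71 ± 0.28 (adjusted p 7.08e-05). Vegfa, an angiogenic growth factor, was not well above background in spleen and read 36.3-fold higher in tumour (adjusted p 5.94e-06). This is the ratio from the measured group means, as the spleen signals lay above the lowest signal well above background on those arrays. The macrophage markers that were higher in the tumour arrays moved in the same direction as these 2 lists, and their part in the lists was not tested.

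The lists of other mitochondrial genes lay between these and the respiratory chain or close to 0. Of 8 carriers and exchangers of the mitochondrial membranes 4 rose and 0 fell, with a median of 0.82. Among them were Slc25a4, an ADP/ATP carrier that supplies ATP synthase with ADP (1.26 ± 0.23, adjusted p 0.00197), and the outer membrane channel Vdac1 (1.0 ± 0.22, adjusted p 0.00454). Of 17 genes of the citric acid cycle and pyruvate dehydrogenase 2 rose and 1 fell, with a median of 0.01. Idh3a, a subunit of NAD-dependent isocitrate dehydrogenase, rose by 0.48 ± 0.13 (adjusted p 0.017) and Suclg1, of succinyl-CoA ligase, fell by 0.70 ± 0.18 (adjusted p 0.0107). Dlat, of the pyruvate dehydrogenase complex, rose by 0.51 ± 0.18 (adjusted p 0.0442). Of 78 mitochondrial ribosomal proteins 6 rose and 6 fell, with a median of 0.06. Mrpl54 (0.68 ± 0.12, adjusted p 0.00188) and Mrpl33 (0.62 ± 0.14, adjusted p 0.0049) rose, and Mrpl24 fell by 0.63 ± 0.12 (adjusted p 0.00268). Of 16 genes of fatty acid oxidation 0 rose and 4 fell, with a median of 0.00. Cpt1a, which brings fatty acids into mitochondria, fell by 0.89 ± 0.27 (adjusted p 0.0255), and the beta-oxidation enzymes Hadhb and Acaa2 by 0.58 ± 0.15 (adjusted p 0.0109) and 0.59 ± 0.15 (adjusted p 0.0111). These shares may be read against 20.6% of all features higher and 22.3% lower.

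Genes that build or regulate the chain without being members made up the last lists. Of 37 further assembly factors 3 rose and 7 fell, with a median of -0.09. The copper chaperone Cox17, which serves complex IV, rose by 0.65 ± 0.12 (adjusted p 0.00218), and Tmem186, a complex I assembly factor, fell by 1.08 ± 0.20 (adjusted p 0.00182), as did the complex III factor Uqcc3 by 0.77 ± 0.17 (adjusted p 0.00544). Of 16 regulators of mitochondrial gene expression 1 rose and 7 fell, with a median of -0.34. Ppargc1b, a coactivator of respiratory genes, fell by 2.08 ± 0.18 (adjusted p 2.15e-05) and Tfam, which packages mitochondrial DNA, fell by 0.77 ± 0.13 (adjusted p 0.000977). Gabpb1, a subunit of GABP, rose by 1.64 ± 0.15 (adjusted p 2.8e-05). After normexp correction the counts were 3 higher for glycolysis, 6 higher and 1 lower for hypoxia, 1 higher and 2 lower for the regulators, and 0 for the carriers. With arrays scaled to their median they were 11 higher for glycolysis, 9 higher and 1 lower for hypoxia, 1 higher and 1 lower for the regulators, 1 higher for the carriers and 1 lower for the assembly factors. In both scalings no gene of the citric acid cycle, mitochondrial ribosome and fatty acid lists passed limma's test.

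**Figure D4:**
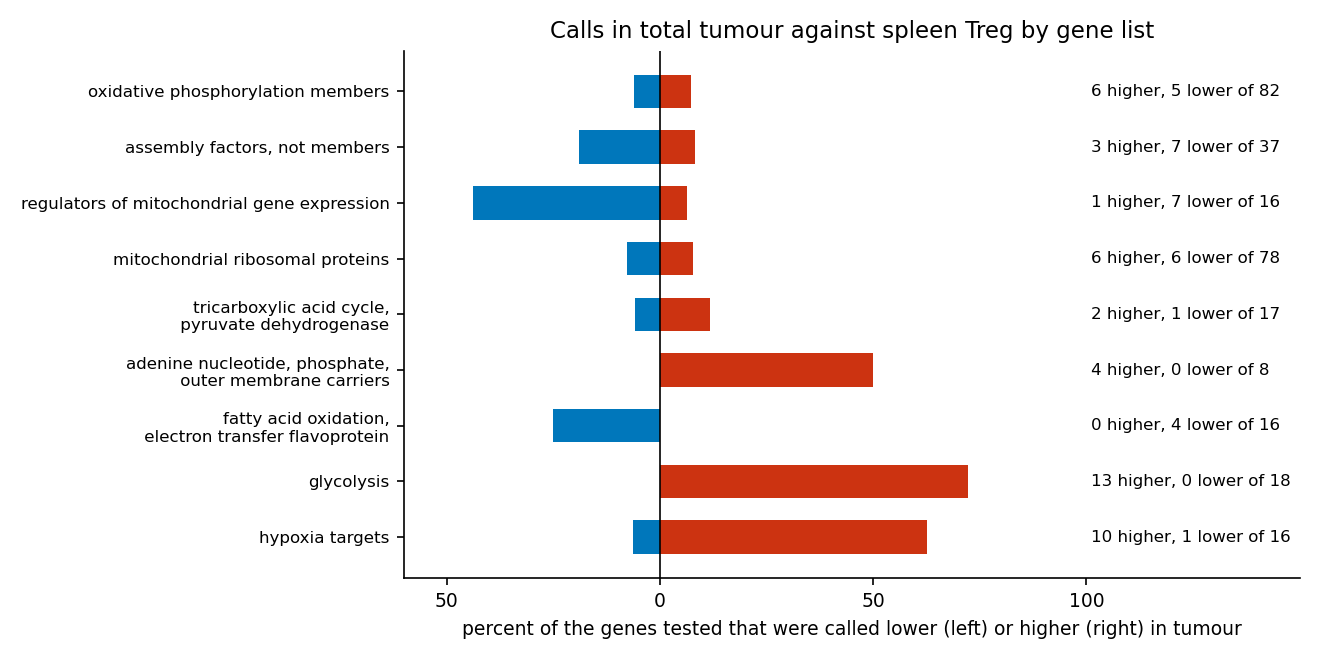
Share of the tested genes of each list called higher or lower in total tumour than in spleen Treg (percent, x axis, lower to the left and higher to the right). Glycolysis and hypoxia genes stand on the higher side with 13 of 18 and 10 of 16, while the members had 6 of 82 higher and 5 of 82 lower.

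The comparison of IL10+ with IL10- tumour Treg addresses whether IL-10 producing Treg differ from IL10- Treg of tumours in the same mouse line. None of the 82 members differed at an adjusted p under 0.05 (limma; 0 called, with 1 at an unadjusted p under 0.05), where 0.0514% of all features were called and 4.67% had an unadjusted p under 0.05. The smallest adjusted p among the members was 1.0. Differences ran from -0.46 to 0.50, with 68 below 0, 14 above, and a median of -0.10 against -0.04 over all features. The groups did not overlap for 9 members (11%, against 7.59% of all features). The median SE of a single member's difference was 0.16.

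The member with the smallest unadjusted p was Ndufb11, an accessory subunit of the membrane arm of complex I. It was at 5.04, 4.86 and 4.83 on the IL10- arrays and 4.60, 4.63 and 4.59 on the IL10+ arrays, which do not overlap (-0.30 ± 0.13, p 0.039, adjusted p 1.0). The core subunit of complex III Uqcrc1 followed (-0.25 ± 0.12, adjusted p 1.0), and then the assembly factor Ndufaf1 (-0.22 ± 0.12, adjusted p 1.0). All 15 ATP synthase genes had values below 0, between -0.19 for Atp5c1 and -0.04 for Atp5j2, and so had all 4 complex II genes. None of these passed the test, and the genes of a list share the same 6 arrays. The median member level was 5.16, 4.84 and 4.80 on the IL10- arrays and 4.96, 4.55 and 4.84 on the IL10+ arrays, which overlap. IL10- replicate 1 was the highest, and without it the median difference over the members moved from -0.10 to 0.00. Slide 3 held the 3 IL10- arrays and 1 IL10+ array, and within it the median was -0.30.

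Total tumour Treg were then set against each IL10 fraction, to place the fractions beside the whole population. Here the mouse line and the last sorting gate differ together with the fraction, and cannot be told apart from it. The total tumour arrays and IL10+ replicate 1 were scanned on 1 day and the IL10- arrays and the other IL10+ arrays on another, so that for IL10- against total tumour Treg the scan day cannot be told apart from the group either. For IL10+ against total tumour Treg, 0 of 82 members were called (limma; 17 at an unadjusted p under 0.05), where 0.18% of all features were called and 16.7% had such a p. Of the differences 70 were below 0, with a median of -0.20 against -0.03 over all features and a range of -0.99 to 0.37. The groups did not overlap for 22 members (26.8%, against 22.8% of all features). Ndufb11 (-0.48 ± 0.13, adjusted p 0.126), Cox7a2l (-0.74 ± 0.20, adjusted p 0.13) and Uqcrfs1 (-0.59 ± 0.17, adjusted p 0.15) had the smallest p-values. By role, 27 of 28 complex I accessory subunits and 12 of 15 complex IV genes had values below 0, and the flavin subunit Ndufv1 stood at 0.37 ± 0.15 (adjusted p 0.266).

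This count rested on 1 library. Without IL10+ replicate 1, 10 members were called, all lower in IL10+ than in total tumour Treg, where 3.39% of all features were called. They were Cox6c (-1.22, adjusted p 0.0283), Ndufv2 (-1.14), Cox6b1 (-1.07), Ndufa4 (-0.98), Ndufb6 (-0.96), Cox7a2l (-0.93), Ndufc1 (-0.79), Uqcrfs1 (-0.75), Atp5g3 (-0.75) and Uqcrc2 (-0.68). Cox6c, a small subunit of complex IV, shows the spread: it was at 3.99, 4.10 and 3.98 in total tumour Treg and at 4.03, 2.94 and 2.67 in IL10+ Treg. IL10+ replicate 1 lay within the total tumour arrays for this gene, and the other IL10+ arrays lay below them. IL10+ replicate 1 shared slide 1 with 2 of the total tumour arrays, while the other IL10+ arrays lay on slides 3 and 4. Within slide 1 the median over the members was 0.00, against -0.09 over all features, and with the scan day as a block, which sets this array against the 3 total tumour arrays, it was -0.016.

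For IL10- against total tumour Treg, which shares its tumour arrays with the comparison before, 0 of 82 members were called (limma; 9 at an unadjusted p under 0.05), where 0.0514% of all features were called and 15.5% had such a p. Of the differences 58 were below 0, with a median of -0.10 against 0.02 over all features and a range of -0.98 to 0.48. The groups did not overlap for 31 members (37.8%, against 28.0% of all features). Cox6c was at 3.30, 2.65 and 3.19 on the IL10- arrays, all below the total tumour arrays (-0.98 ± 0.31, adjusted p 0.184). Uqcrb, a subunit of complex III, had a difference of -0.62 ± 0.22 (adjusted p 0.218) and the Rieske protein Uqcrfs1 -0.49 ± 0.17 (adjusted p 0.221). The Uqcrfs1 arrays were at 3.66, 3.45 and 3.43 in total tumour Treg, 3.22, 2.87 and 2.97 in IL10- and 3.23, 2.71 and 2.82 in IL10+ Treg. Both fractions lay below total tumour Treg and spanned the range of the spleen arrays, which read 3.0, 3.20 and 2.94. No slide held both IL10- and total tumour arrays. Without IL10+ replicate 1, which is in neither group here, Cox6c alone was called (adjusted p 0.0423). That is 1.22% of the members, where 1.20% of all features were called.

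**Figure D5:**
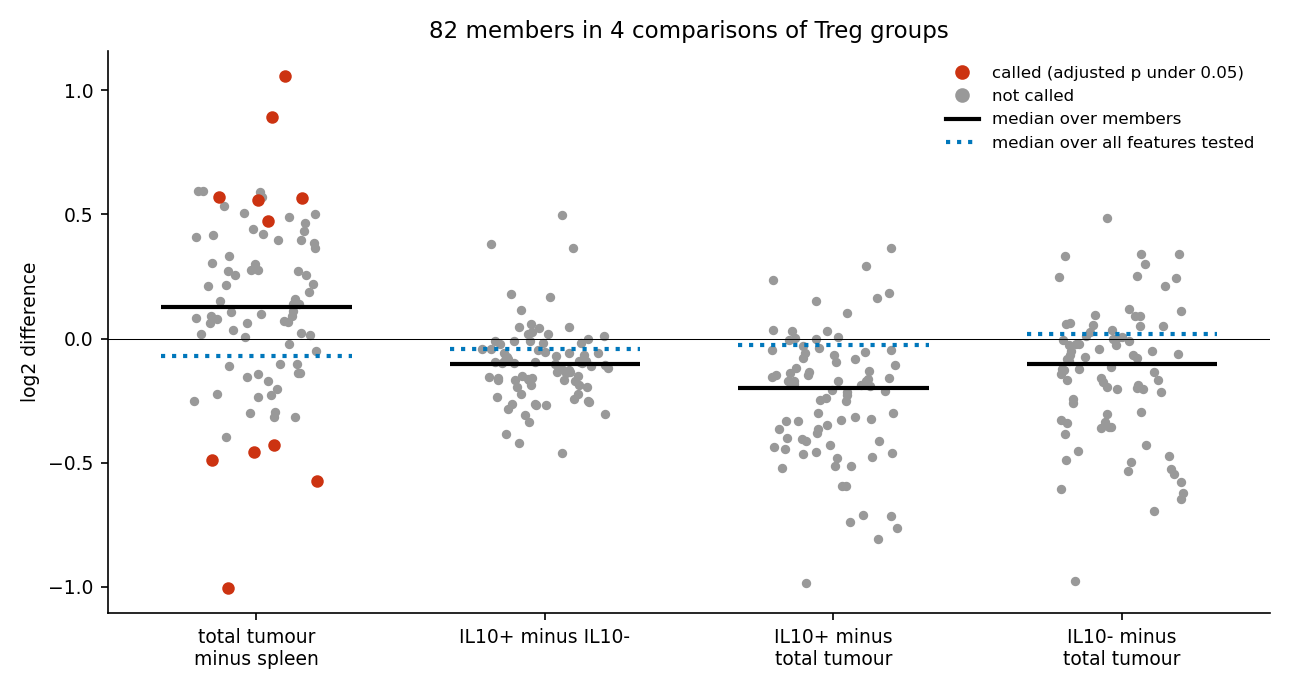
Differences (log2, y axis) of the 82 tested members in each of the 4 comparisons, 1 point per gene, with solid lines for the median over members and dotted lines for the median over all features. The median of the members is 0.12 for tumour against spleen and -0.10, -0.20 and -0.10 in the comparisons of IL10 fractions, which share arrays.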

How the data were processed

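Per the file headers, each file holds the scanner output of 1 one-colour array read by Agilent Feature Extraction 9.5.3.1, with probe positions on mm8 (NCBI build 36). The processed signal used is a deposited intensity on a linear scale, background-corrected by that software per the file headers. The deposited value table holds log10 values (median 1.33 on each array). These correlated at 0.995 to 1.00 with log10 of the processed signal. Their normalization is not stated in what was read here.

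Outlier spots and control spots were left out, spots of a probe were averaged, and log2 signal was centred on each array's 75th percentile. Probes were named through RefSeq accessions, symbols or synonyms, or kept the file's name. Of 41174 probes, 6904 had no name. A gene was read by its brightest probe, kept if well above background on 3 or more of the 12 arrays, which left 15559 features, 13533 of them named. limma 3.58.1 (R 4.3.3) fitted the 4 groups of 3 arrays together (residual df 8) with 4 contrasts, and p-values were Benjamini-Hochberg adjusted over all features. The fit was tested on simulated data. For 3 genes (Ndufa12l, Cox4nb and Atp5s) the role given here follows their current symbols and departs from the planned lists. Given with values were the called members, the catalytic or electron-carrying subunits and isoform sets, the 3 members with the smallest p in each comparison without calls, and the 3 genes with the smallest p of each list. Of these, 1 gene is not reported here. Ndufs7, Sdhc, Uqcrq, Cox4nb, Atp5s, Ndufa12l, the ATP synthase genes at the ends of their range and the further probes were chosen after their values were seen. The members and lists were chosen with earlier results of these data known. Of the other marker lists, summed in the same way, CD8 and NK markers spanned 15.1 to 30.5 in spleen and 10.7 to 11.6 in total tumour, dendritic markers 0.879 to 2.94 and 1.63 to 2.31, neutrophil markers 0.221 to 2.43 and 0.540 to 1.20, and epithelial markers 0.510 to 2.03 and 2.12 to 3.12.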

Additional observations from a re-analysis of the deposited data

How the results depend on the processing

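The results were recomputed under 25 alternatives, 12 of which left out 1 array. For total tumour against spleen Treg, 11 members were called, with 43.0% of all features. The count was 1 after normexp correction and 0 with arrays scaled to their median (limma, with 3 at an unadjusted p under 0.05). Of all features 12.4% and 24.9% were called there. It was 3 with no filter on dim probes (17.7% of all features) and 30 on the arrays compared alone (53.8%). With the scan day as a block it was 21 (47.0%), in the same fit for this comparison as without IL10+ replicate 1. With the slide as a block most of the 11 were not called, in a fit that rests on 1 tumour array. Fewer of all features were called in that fit as well. The count ranged from 6 to 21 when 1 array was left out, against 32.8% to 47.0% of all features. The median over the members became -0.10 after normexp, and Ndufa3 reversed to 0.17 (adjusted p 0.392) with the mean over its probes. For IL10+ against IL10- the median was -1.27 after normexp and -0.30 with the slide as a block, and -0.19 to 0.00 without 1 array. For IL10+ against total tumour Treg it was -1.16 after normexp, -0.61 with median scaling and 0.0027 with the slide and -0.016 with the scan day as a block. Calls in that comparison ranged from 0 to 10 without 1 array, against 0.0129% to 3.39% of all features. For IL10- against total tumour Treg the median was 0.067, -0.50, 0.34 and 0.15 under the same 4 settings. There were 0 to 1 calls without 1 array, against 0.0129% to 1.20% of all features. No slide or scan day held both of these groups. The values with the slide and the scan day as a block are therefore reached only through the IL10+ arrays, and cannot separate the block from the group. Median scaling moved the median of all features to -0.43 and -0.38 in these last comparisons. After normexp the 75th percentile was 1212 against 306 for IL10+ replicate 2, 580 against 98.9 for IL10+ replicate 3 and 922 against 396 for total tumour replicate 3. The cause of these shifts was not tested.

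The labels tie no replicate number to a shared day or batch, and the numbers were not taken as pairs because not every pair correlated above 0.1. Correlations of same-numbered deviations were 0.41, 0.43 and -0.24 between IL10- and IL10+ and between -0.24 and 0.08 for the other pairs tested. With the replicate number as a block, 11 members were called for tumour against spleen (8 higher, 3 lower, 9 shared with the 11 reported), with 42.2% of all features. For IL10+ against IL10- Treg 0 members were called with this block (limma; 0 at an unadjusted p under 0.05), with 0.0193% of all features. Every group holds each replicate number, so that this block cannot change the medians over the members. The 75th percentile over probes, chosen like the scan day after seeing the data, gave 12 calls, also with 42.2% of all features. Precision is limited by 3 arrays per group.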

Other observations

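A few subunits of the respiratory chain stand in the array design under clone names or other symbols and so lie outside the naming rule. Among them, Atp5md, a small membrane subunit of ATP synthase, rose by 0.50 ± 0.17 (limma, adjusted p 0.0394) between spleen and total tumour Treg, and Ndufv3, an accessory subunit of complex I, rose by 0.46 ± 0.15 (adjusted p 0.0287). Uqcr10, a small subunit of complex III, had a difference of 0.43 ± 0.16 (adjusted p 0.0539) and the ATP synthase subunit Atp5mpl one of 0.08. These genes were singled out by their current names after the values of the members had been seen.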
